A study of Mus musculus with 675 samples.

Results

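The aorta's wall holds contractile smooth muscle, matrix-producing fibroblasts and an endothelial lining, and the genes described here encode 9 channels that respond to stretch or to signals from receptors: Trpc1, Trpc4, Trpc6, Trpm4, Trpv2, Trpv4, Pkd2, Piezo1 and Ano1. They were chosen by name, and each matched 1 of the 46517 gene identifiers in the table of counts. Sorted cells from the aorta of male C57BL/6 mice, 10 weeks old, were sequenced one by one with Smart-seq2, which copies whole transcripts rather than their ends. All cells share strain, sex and age, and no treatment or allele is given; the heart, not the aorta, is the organ that the dissociation protocol mentions. The 675 cells come from 2 pools of 2 mice each, 54.4% of them from pool A and 45.6% from pool B, each on its own plate, so a pool is the replicate (n = 2) and mice and plate are 1 factor.

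TRP (transient receptor potential) channels let calcium and sodium into the cell. TRPC channels open downstream of receptors that activate phospholipase C, TRPM4 opens with calcium and carries sodium, and TRPV2 and TRPV4 respond to swelling or membrane tension. Piezo1 is a channel opened directly by membrane tension, and in blood vessels it is known as a sensor of shear stress in the endothelium. Polycystin 2, the product of Pkd2, forms a cation channel with polycystin 1 (Pkd1). Ano1 encodes the calcium-activated chloride channel TMEM16A, whose current depolarises vascular smooth muscle.

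The bases before the start of transcription are shown for the 4 members with a called difference below and for Trpc6, whose counts lay almost wholly in 1 cell. They come from RefSeq's table for build GRCm38.p6, which holds 8 of the 9 members, each as 250 bases read 5′ to 3′ on the strand of the gene. Capitals mark letters of 4 motifs found on either strand: the CArG box, bound by serum response factor, MCAT (CATTCC), the GC box (GGGCGG) and the TATA box (TATAAA).
Ano1, chr7:144738574-144738823, minus strand: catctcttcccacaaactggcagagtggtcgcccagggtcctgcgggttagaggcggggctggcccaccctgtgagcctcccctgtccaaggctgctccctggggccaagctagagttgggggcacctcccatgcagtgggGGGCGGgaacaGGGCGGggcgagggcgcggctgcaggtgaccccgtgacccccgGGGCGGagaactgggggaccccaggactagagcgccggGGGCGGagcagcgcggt
Trpv2, chr11:62574236-62574485, plus strand, the first of 3 starts: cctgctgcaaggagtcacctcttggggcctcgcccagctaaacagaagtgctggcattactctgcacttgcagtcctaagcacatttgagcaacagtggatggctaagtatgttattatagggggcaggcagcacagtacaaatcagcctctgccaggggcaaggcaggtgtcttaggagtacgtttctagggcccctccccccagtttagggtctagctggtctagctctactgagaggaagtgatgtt
Pkd2, chr5:104459207-104459456, plus strand: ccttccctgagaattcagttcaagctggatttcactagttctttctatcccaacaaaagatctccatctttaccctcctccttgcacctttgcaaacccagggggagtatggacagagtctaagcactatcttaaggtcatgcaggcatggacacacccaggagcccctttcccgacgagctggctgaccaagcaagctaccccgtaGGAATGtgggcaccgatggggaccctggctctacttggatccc
Trpv4, chr5:114658422-114658671, minus strand: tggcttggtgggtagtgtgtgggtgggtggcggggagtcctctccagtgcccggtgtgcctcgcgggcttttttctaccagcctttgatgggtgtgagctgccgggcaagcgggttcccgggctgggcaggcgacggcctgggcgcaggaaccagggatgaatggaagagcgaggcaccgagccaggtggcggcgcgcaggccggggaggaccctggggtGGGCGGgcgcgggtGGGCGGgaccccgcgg
Trpc6, chr9:8543892-8544141, plus strand: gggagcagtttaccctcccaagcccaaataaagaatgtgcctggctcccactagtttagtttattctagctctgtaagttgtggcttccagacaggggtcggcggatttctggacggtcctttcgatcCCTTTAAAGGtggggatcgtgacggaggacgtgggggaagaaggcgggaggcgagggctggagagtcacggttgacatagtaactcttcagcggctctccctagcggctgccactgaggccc
The Ano1 window held 4 GC boxes and the Trpv4 window 2, a motif found in 32.7% of all 32851 promoters of the same length. The Pkd2 window held 1 MCAT motif, found in 12.6% of promoters, and the Trpv2 window shown held none of the 4 motifs. Of the other Trpv2 starts in the table, the window of the third held 1 MCAT motif. A CArG box was found in the window of Trpc6 alone among these 5, against 1.47% of all promoters, although Trpc6 had only 2 counts in smooth muscle-like cells. The Ano1 start lies inside the longer GENCODE model of the gene (chr7:144588549-144751974), so other starts of this gene were not searched.

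Cells were grouped by clustering on genes that include none of the 9, and a class was named from its markers. The 577 smooth muscle-like cells were 83.9% of pool A and 87.3% of pool B, the 62 fibroblast-like cells were 38 and 24 in number and the 26 endothelial-like cells 16 and 10, and 10 cells whose name differed between clustering resolutions entered no class. A cell held 52000 to 608582 counts in pool A and 51886 to 713700 in pool B, and the median was higher in smooth muscle-like cells (292448 and 322458) than in fibroblast-like (154446 and 141165) or endothelial-like cells (231790 and 175720). All 8 smooth muscle markers reached 100 CPM (counts per 1000000 counts of the summed class) in smooth muscle-like cells of both pools, all 7 fibroblast markers did so in fibroblast-like cells and all 8 endothelial markers in endothelial-like cells. In endothelial-like cells the 8 smooth muscle markers summed to 2068 CPM in pool A and 3140 CPM in pool B, the 6 pericyte markers to 520 and 1646 CPM, the 7 fibroblast markers to 101.99 and 1336 CPM and the 3 erythroid markers to 7.46 and 511 CPM, whereas the 3 platelet markers (58.7 and 0 CPM) and the 6 macrophage markers (22.7 and 0 CPM) were lower in pool B. Their part in the results was not tested, and each comparison with endothelial-like cells is also given without the 1 and 3 of these cells that reached 100 CPM of Dcn, a fibroblast marker.

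In smooth muscle-like cells the highest of the 9 genes was Ano1, followed by Trpv2 and Pkd2, while Trpc6, Trpc4 and Trpv4 had almost no counts. Compared per exonic kilobase and scaled to a fixed total (a TPM-like level), Ano1 stood at 62.1 ± 11.9, Trpv2 at 30.97 ± 6.82, Pkd2 at 11.003 ± 4.64, Trpm4 at 6.38 ± 0.821, Piezo1 at 4.50 ± 0.182 and Trpc1 at 3.34 ± 1.68 (SD, n = 2 pools). The pools of Ano1 (70.5 and 53.6), Trpv2 (26.2 and 35.8), Pkd2 (14.3 and 7.72) and Trpm4 (6.96 and 5.80) did not overlap from one to the next in that order, whereas Trpc1 (4.53 and 2.15) overlapped with Piezo1 (4.37 and 4.63). This order depends on the length used: per longest transcript, Pkd2 (21.9 and 11.8) overlapped with Trpm4 (13.8 and 11.4), and the mean of Trpc1 (4.64) lay above that of Piezo1 (4.28). Trpv4 at 0.321 ± 0.379, Trpc4 at 0.191 ± 0.270 and Trpc6 at 0.00605 ± 0.00855 closed the order without separating from one another. Fibroblast-like cells had another leading gene: Pkd2 at 77.5 ± 10.2, ahead of Piezo1 at 9.27 ± 0.606 and Ano1 at 7.09 ± 1.79. Trpc1 there had a mean of 5.07 ± 6.14, but in pool A its level (9.41) lay above those of Piezo1 (8.84) and Ano1 (5.82). Endothelial-like cells had Trpv4 at 62.6 ± 23.2, Piezo1 at 32.05 ± 18.8 and Pkd2 at 23.6 ± 4.83, and the lower pool of Trpv4 (46.2) lay close to the higher pool of Piezo1 (45.3), while Piezo1 (45.3 and 18.8) and Pkd2 (27.01 and 20.2) overlapped, and per longest transcript the mean of Pkd2 (36.5) lay above that of Piezo1 (30.7).

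**Figure D1:**
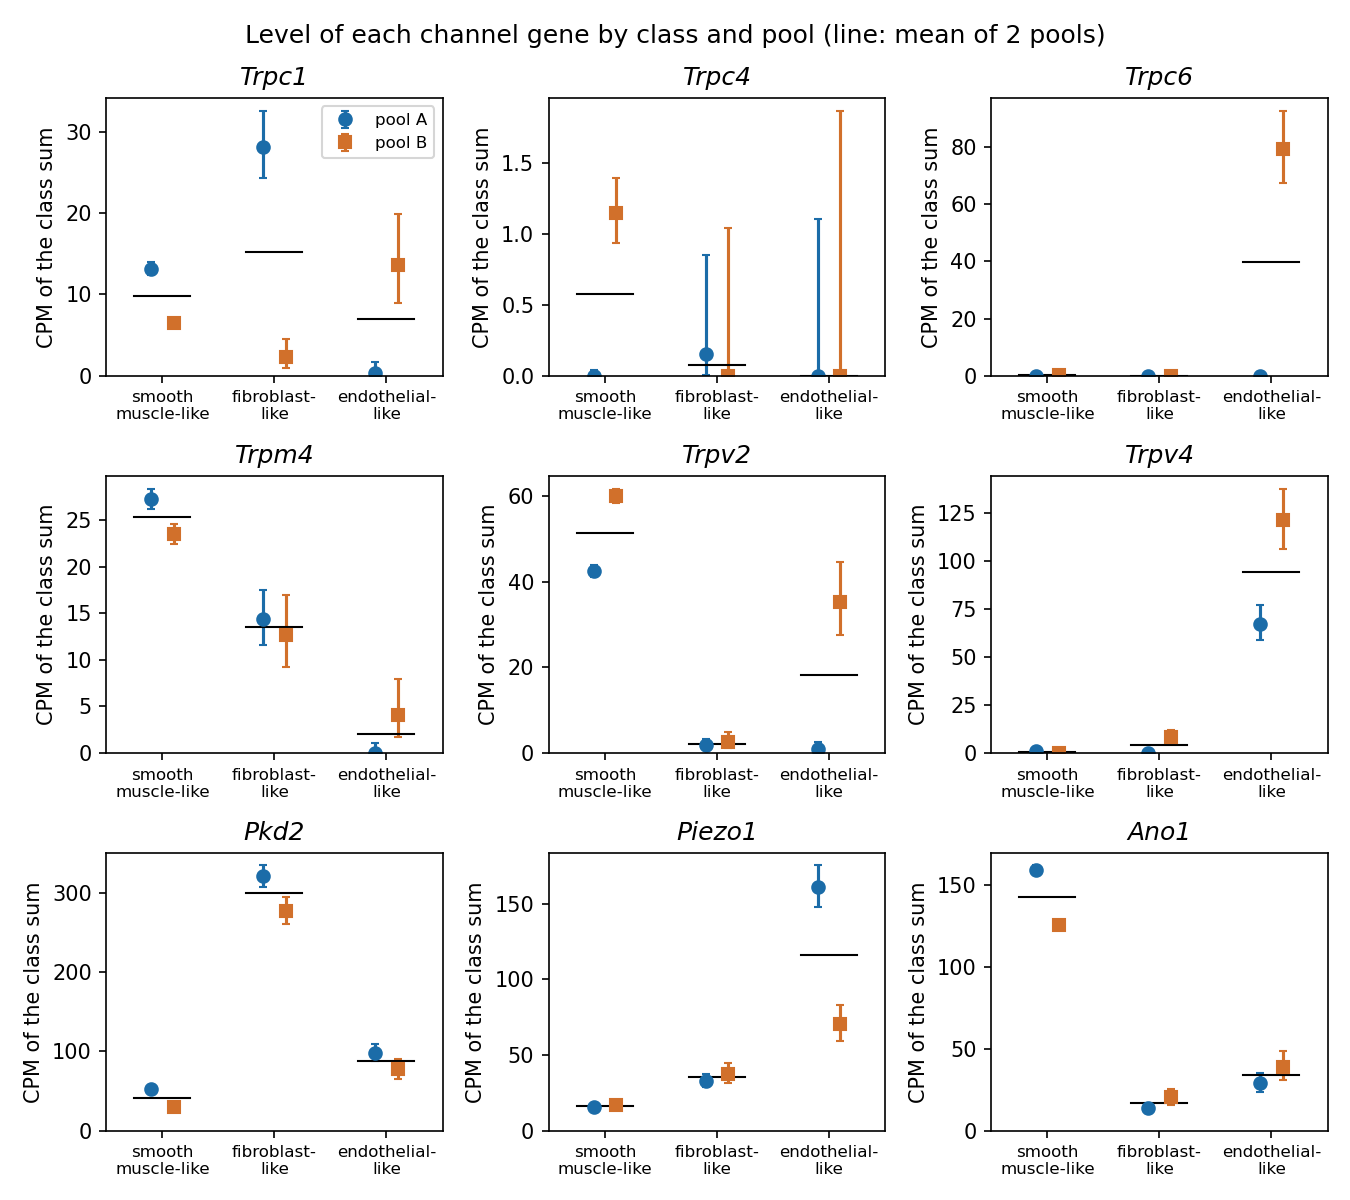
Level of each gene in CPM of the summed class (vertical axis, linear, own scale per gene) for smooth muscle-like, fibroblast-like and endothelial-like cells. Circles are pool A and squares pool B, bars are exact 95% Poisson intervals that cover counting error only, and lines are means of both pools. Ano1 and Trpv2 stand highest in smooth muscle-like cells, Pkd2 in fibroblast-like cells, and Trpv4 and Piezo1 in endothelial-like cells. Piezo1 shares exons with a neighbouring gene, Ctu2, and its endothelial-like counts in excess of those of Ctu2 were 80.8 CPM in pool A and 0 CPM in pool B.

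The calcium-activated chloride channel gene Ano1 was present in more smooth muscle-like cells than any other member. Its level in smooth muscle-like cells was 159.3 CPM in pool A and 125.3 CPM in pool B, in fibroblast-like cells 13.6 and 20.3 CPM, and in endothelial-like cells 28.9 and 38.9 CPM. The smooth muscle-like values lay above all 4 others. The summed level of the 8 smooth muscle markers was 19641 CPM in pool A and 18204 CPM in pool B for smooth muscle-like, 1820 and 3418 CPM for fibroblast-like and 2068 and 3140 CPM for endothelial-like cells, and their part in the Ano1 levels was not tested. In fibroblast-like cells 1 cell held 80.9% of the Ano1 counts of pool A and 77.8% of those of pool B, and in endothelial-like cells 91.8% and 85.7%. When each cell was thinned to 20000 counts, Ano1 was present in 53.6% and 55.8% of smooth muscle-like cells, in 5 of 38 and 7 of 24 fibroblast-like cells and in 4 of 16 and 3 of 10 endothelial-like cells. Without thinning it was present in 78.2% and 82.9% of smooth muscle-like cells, in 15 and 13 fibroblast-like cells and in 8 and 7 endothelial-like cells, and the classes differ in depth as given above.

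Trpv2, whose channel is activated by swelling and stretch in vascular smooth muscle of the mouse, was also higher in smooth muscle-like cells. Its level there was 42.4 CPM in pool A and 60.04 CPM in pool B, in fibroblast-like cells 1.83 and 2.54 CPM, and in endothelial-like cells 0.895 and 35.4 CPM. The endothelial-like values differed between the pools, and 1 cell held 95.7% of the counts in pool B. After thinning 20.1% and 33.5% of smooth muscle-like cells held a count, against 5.26% and 8.33% of fibroblast-like cells.

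Trpm4, the calcium-activated sodium channel gene, was lower and sparser. Smooth muscle-like cells had 27.3 CPM in pool A and 23.5 CPM in pool B, fibroblast-like cells 14.3 and 12.7 CPM, and endothelial-like cells 0 and 4.04 CPM. The 3 classes did not overlap. In fibroblast-like cells 55.3% and 93.3% of the counts were in 1 cell, so that level rests on few cells. After thinning 11.4% and 15.6% of smooth muscle-like cells held a count.

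Pkd2 ran the other way. Smooth muscle-like cells had 52.6 CPM in pool A and 29.4 CPM in pool B, fibroblast-like cells 321.7 and 278.1 CPM, and endothelial-like cells 98.4 and 77.3 CPM, and no pool of one class overlapped with another class. The fibroblast-like level was spread over cells: 33 of 38 and 20 of 24 cells held a count, and 24 and 13 cells reached 100 CPM. After thinning 33.8% and 23.05% of smooth muscle-like cells held a count, against 71.1% and 66.7% of fibroblast-like cells. Its partner Pkd1 had levels of 286.5 and 294.7 CPM in smooth muscle-like cells that overlapped with those of fibroblast-like cells (262.1 and 326.5 CPM) and lay above those of endothelial-like cells (139.9 and 66.2 CPM). Pkd1 shares 693 of its 17415 exonic bases with Tsc2 on the opposite strand, so its levels also carry an uncertainty over strand. The overlap is a smaller part of the gene than the 2441 of 9935 bases of Piezo1 below, and counts of Tsc2 were not examined.

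Trpv4, a channel of the vessel lining that opens with swelling and lipid mediators, was present in few cells. Smooth muscle-like cells had 0.869 CPM in pool A and 0.0802 CPM in pool B, fibroblast-like cells 0 and 8.17 CPM, and endothelial-like cells 67.4 and 121.2 CPM. The endothelial-like values came from 5 of 16 and 3 of 10 cells, the highest of which held 48.7% and 58.8% of the counts. In smooth muscle-like cells 9 of 577 cells held a count, and 1 cell held 98.7% of the counts of pool A.

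Before thinning Trpc1 was present in 22.1% (pool A) and 19.7% (pool B) of smooth muscle-like cells, in 8 and 2 fibroblast-like cells and in 1 and 2 endothelial-like cells. Smooth muscle-like cells had 13.2 CPM in pool A and 6.47 CPM in pool B, fibroblast-like cells 28.2 and 2.25 CPM, and endothelial-like cells 0.298 and 13.6 CPM, so the order of the classes differed between the pools. The fibroblast-like value of pool A had 60.5% of its counts in 1 cell. After thinning 9.09% and 7.06% of smooth muscle-like cells held a count.

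Trpc6 and Trpc4, both known as receptor-operated channels, had few counts. Trpc6 had 0 and 2 counts in smooth muscle-like cells, of which the 0 of pool A allows a level of up to 0.0330 CPM (3 counts of the total), and 0 counts in fibroblast-like cells of both pools. In endothelial-like cells it had 0 counts in pool A and 79.3 CPM in pool B, all in 1 cell. Trpc4 had 0 and 100 counts in smooth muscle-like cells (0 and 1.15 CPM), held by 3 cells, 1 count in fibroblast-like cells and 0 in endothelial-like cells. At this depth Trpc6 was at or near the limit of detection in smooth muscle-like cells, which does not show that it or its protein is absent.

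**Figure D2:**
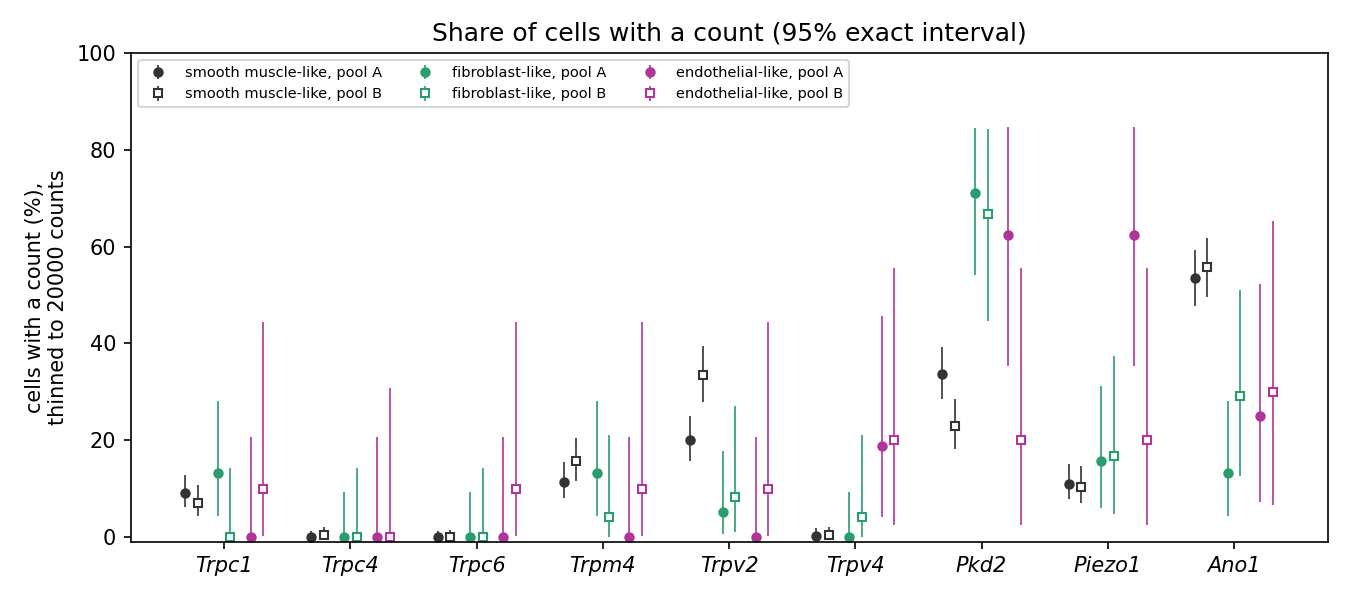
Share of cells with a count of each gene after every cell was thinned to 20000 counts (vertical axis, %), by class (colour) and pool (filled, pool A; open, pool B), with exact 95% Clopper-Pearson intervals. Ano1 was present in 53.6% and 55.8% of smooth muscle-like cells and Pkd2 in 71.1% and 66.7% of fibroblast-like cells, and intervals of endothelial-like cells are wide with 16 and 10 cells.

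Piezo1 shares exons with a neighbouring gene. It lies on the minus strand of chr8:122481698-122551329, and 2441 of its exonic bases overlap exons of Ctu2, a tRNA-modifying enzyme gene on the plus strand. Strand use in counting is not stated. Of the 9 members Piezo1 was the one whose exons overlap those of another gene in GENCODE M21. In smooth muscle-like cells 71.3% and 72.5% of the cells with a count of Ctu2 also held a count of Piezo1, against 5.18% and 10.6% of the cells with none, and 92.5% and 93.1% of all Piezo1 counts were in cells with a Ctu2 count. Of the 82 and 79 cells with both, 31 and 16 had exactly equal counts of both genes. The shared bases are part of the 9935 exonic bases of Piezo1. How reads from them were counted is not stated, and the counts do not show from which gene such a read came. Piezo1 values are therefore uncertain, by a share of the counts that is not known and can exceed the share of the bases. Piezo1 was present without Ctu2 in 10 and 17 smooth muscle-like cells.

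**Figure D3:**
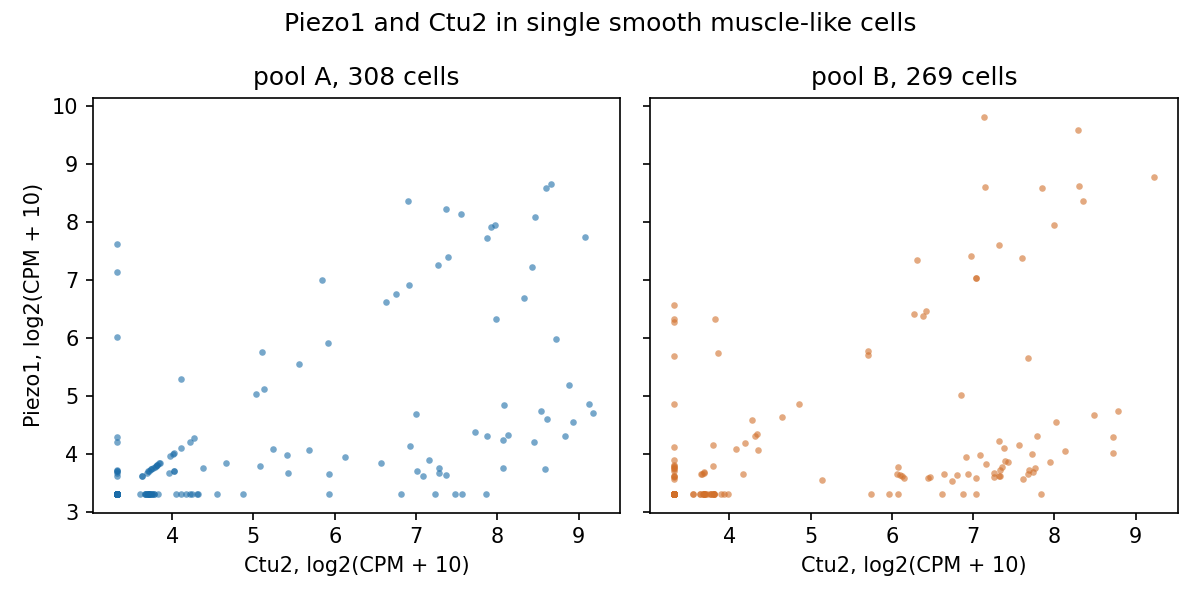
Piezo1 (vertical axis) against Ctu2 (horizontal axis) in each smooth muscle-like cell, as log2(CPM + 10), for pool A (left) and pool B (right). Points at the lowest value of either axis have no count, and many of the others lie on the diagonal, with r = 0.67 in pool A and 0.55 in pool B.

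Piezo1 was lowest in smooth muscle-like cells, with 15.7 CPM in pool A and 17.2 CPM in pool B, against 32.8 and 37.5 CPM in fibroblast-like and 161.3 and 70.2 CPM in endothelial-like cells, and the classes did not overlap. Ctu2 had 43.6 and 41 CPM in smooth muscle-like, 40.5 and 43.7 CPM in fibroblast-like and 88.3 and 97.98 CPM in endothelial-like cells. Counting in each cell only the Piezo1 counts in excess of its Ctu2 counts left 2.97 and 6.76 CPM in smooth muscle-like, 5.64 and 15.8 CPM in fibroblast-like and 80.8 and 0 CPM in endothelial-like cells. The endothelial-like level of pool A held counts beyond those of Ctu2, in 8 cells, and that of pool B held none. After thinning 11.04% and 10.4% of smooth muscle-like cells held a Piezo1 count, against 10 of 16 and 2 of 10 endothelial-like cells. Piezo2, its paralog, had 13.02 ± 5.29 CPM in smooth muscle-like, 61.01 ± 32.8 CPM in fibroblast-like and 0.654 ± 0.503 CPM in endothelial-like cells (SD, n = 2 pools).

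In the comparison of smooth muscle-like with fibroblast-like cells, Ano1 and Trpv2 were higher and Pkd2 was lower. Of 8484 genes tested 6.64% were called, 3.21% as higher and 3.43% as lower, and of the 7 members that passed the filter on low counts 2 were higher and 1 was lower. Ano1 was higher in smooth muscle-like cells by 3.01 ± 0.49 on the log2 scale (8.07-fold; edgeR quasi-likelihood test, adjusted p = 0.00308), higher in both pools. Trpv2 was higher by 4.47 ± 0.94 (22.2-fold; adjusted p = 0.0152 by the same edgeR test). Pkd2 was lower by 3.01 ± 0.35 (8.04-fold; log2 fold change -3.01, edgeR adjusted p = 0.000285). Trpm4 (0.83 ± 0.97, adjusted p = 0.722), Piezo1 (-1.17 ± 0.81, adjusted p = 0.485), Trpc1 (0.08 ± 1.39, adjusted p = 0.986) and Trpv4 (-2.04 ± 5.27, adjusted p = 0.891) did not pass in edgeR. Trpc4 and Trpc6 failed the filter on low counts. The median log2 fold change of the 7 was 0.08 and that of all tested genes 0.32. Ano1 and Trpv2 were not called (adjusted p = 0.174 and 0.302 in edgeR) when the fibroblast-like cells included the 10 cells outside the classes, which held 256.7 and 205.8 CPM of Ano1 (Leiden resolution 0.5), nor at resolution 0.25 (adjusted p = 0.298 and 0.0776) or in 1 fit of all 3 classes (adjusted p = 0.120 and 0.349), and Pkd2 was called in all 3.

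In the comparison of smooth muscle-like with endothelial-like cells, Trpv4 was lower. Of 8337 genes tested 6.15% were called, 2.83% as higher and 3.32% as lower, and of the 7 members tested 0 were higher and 1 was lower in edgeR. Before adjustment 3 of the 7 had p under 0.05 in edgeR, against 1384 of all 8337 genes tested. DESeq2 called 3 of the 7, against 1097 of all 8337: Trpv4 and Piezo1 (adjusted p = 0.0118) lower and Trpm4 (adjusted p = 0.0209) higher. Trpv4 was lower in smooth muscle-like cells by 8.29 ± 1.59 on the log2 scale (log2 fold change -8.29; edgeR adjusted p = 0.000400), with the endothelial-like level resting on 8 cells. It was not called without the replicate block (adjusted p = 0.0910), in the 3-class fit (adjusted p = 0.177) or at Leiden resolution 0.25 (adjusted p = 0.488). Piezo1 (-2.69 ± 0.95, adjusted p = 0.104) and Ano1 (2.08 ± 0.78, adjusted p = 0.139) did not pass in edgeR, nor did Trpm4 (4.89 ± 2.54, adjusted p = 0.321), Trpv2 (2.97 ± 1.67, adjusted p = 0.358), Pkd2 (-1.14 ± 0.89, adjusted p = 0.523) or Trpc1 (1.82 ± 3.03, adjusted p = 0.829). Piezo1 passed when the endothelial-like cells with 100 CPM of Dcn were left out (-3.13 ± 0.93, adjusted p = 0.0142 in edgeR), as did Trpv4. In edgeR, Piezo1 was also called lower after thinning and at Leiden resolution 0.25, and under the other edgeR alternatives with a test it was not called. The unfiltered fit also called Trpc6 lower, which rests on the 1 cell named above. The median over the 7 was 1.82 and over all tested genes 0.68.

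The third comparison set fibroblast-like against endothelial-like cells, and 1.43% of 5794 tested genes were called in edgeR, 0.742% as higher and 0.69% as lower, among them 0 of the 6 members tested. Pkd2 was 1.89 ± 0.50 on the log2 scale (adjusted p = 0.205 in edgeR), Trpv4 -6.09 ± 2.28 (adjusted p = 0.328), Piezo1 -1.49 ± 0.89 (adjusted p = 0.554), Ano1 -0.90 ± 1.44 (adjusted p = 0.882), Trpm4 4.14 ± 2.93 (adjusted p = 0.629) and Trpc1 1.75 ± 5.04 (adjusted p = 0.951). Before adjustment 2 of the 6 had p under 0.05 in edgeR, against 839 of all 5794 genes tested. The 2 members were Pkd2 with p = 0.0121 and Trpv4 with p = 0.0395 (edgeR), both with the same direction in 2 of 2 pools. Trpv4 was called lower in DESeq2 (adjusted p = 0.000126), after thinning (edgeR adjusted p = 0.0262) and without the cells with 100 CPM of Dcn (edgeR adjusted p = 0.0346).

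**Figure D4:**
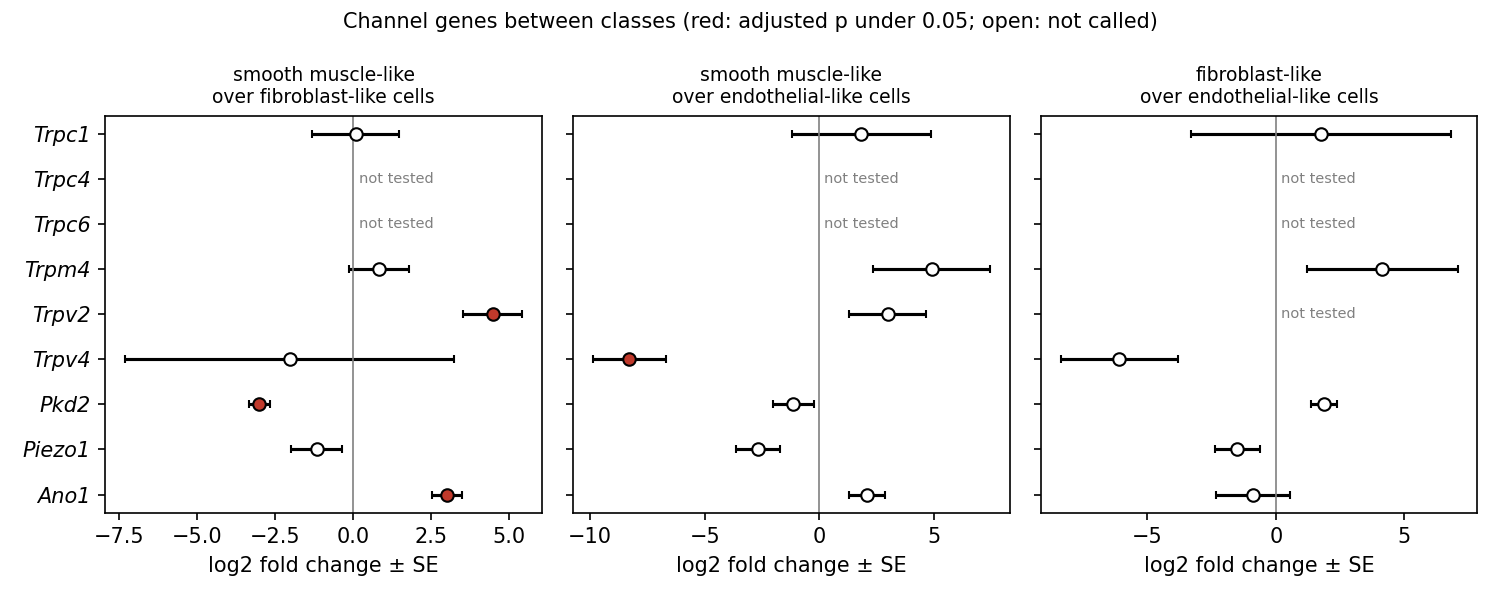
Log2 fold change with its standard error (horizontal axis) of each gene in the 3 comparisons, from the edgeR fits. Red points passed an adjusted p of 0.05: Ano1 and Trpv2 higher and Pkd2 lower in smooth muscle-like than in fibroblast-like cells, and Trpv4 lower in smooth muscle-like than in endothelial-like cells.

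Genes around these channels were counted from 6 lists. Among the 23 genes of calcium entry, release and coupled channels, 22 were tested in the first of these comparisons, where 6 were higher and 2 lower, with a median log2 fold change of 1.34 against 0.32 over all genes. Kcnmb1, the beta subunit of the large-conductance calcium-activated potassium channel, had 513 and 535 CPM in smooth muscle-like cells, against 8.99 and 23.7 CPM in fibroblast-like cells (log2 fold change 5.08, edgeR adjusted p = 2.67e-05), and its pore subunit Kcnma1 had 62.3 and 43.1 CPM, against 1.52 and 1.41 CPM (5.08, edgeR adjusted p = 0.00881). The T-type calcium channel gene Cacna1g was lower (-9.03, edgeR adjusted p = 0.000268), with smooth muscle-like levels of 0.341 and 0.0344 CPM, against fibroblast-like levels of 99.2 and 40.004 CPM. Of the 23 genes of Gq receptors and phospholipase C, 20 were tested and 2 were higher and 1 lower: the adrenergic receptor gene Adra1d (4.18, edgeR adjusted p = 0.00647), the phospholipase gene Plcb4 (2.75, adjusted p = 0.000609) and the prostaglandin receptor gene Ptgfr (-9.08, adjusted p = 5.85e-05). Of the 12 channel partners, 11 were tested and 3 were higher: Flna, an actin cross-linker that binds Pkd2 in other cells, Cav1, the caveola coat protein gene, and Pacsin2. The other 3 lists, of 25 other TRP and polycystin genes, 21 other stretch and volume channels and 12 other anoctamins and bestrophins, had 0 called genes among 10, 12 and 7 tested in edgeR. Before adjustment 1, 5 and 3 of these had p under 0.05 in edgeR, against 1654 of all 8484 genes tested. DESeq2 called 1, 4 and 2 of them, against 1193 of all 8484.

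In the comparison with endothelial-like cells, Tmem63a was higher among the 12 stretch and volume channels tested (95.1 and 127.1 CPM in smooth muscle-like cells, against 2.68 and 27.3 CPM in endothelial-like cells; log2 fold change 3.62, edgeR adjusted p = 0.0407). Of the 11 channel partners tested there, 1 was higher, Flna, and 2 were lower, Mdfic and Cav1. Mdfic, which binds Piezo1 channels, was lower (10.5 and 6.13 CPM in smooth muscle-like cells, against 108.5 and 98.99 CPM in endothelial-like cells; -3.68, edgeR adjusted p = 0.0285). Cav1, called higher against fibroblast-like cells, was lower against endothelial-like cells (-1.15, edgeR adjusted p = 0.00404). Ednrb, the endothelin B receptor gene of the endothelium, was lower in smooth muscle-like cells than in endothelial-like cells (-8.23, edgeR adjusted p = 4.10e-08), and Tbxa2r, the thromboxane receptor gene, higher (6.09, edgeR adjusted p = 0.000379). Of the closest relatives, Piezo2, Pkd1, Ano6, Trpm7 and Tmem63b passed in none of the 3 comparisons, with Pkd1 nearest in smooth muscle-like over endothelial-like cells (1.60, edgeR adjusted p = 0.0863).

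Within single smooth muscle-like cells these genes showed weak correlations in counts that are sparse. Over the 10 pairs of the 5 members with at least 10 CPM in both pools (Trpm4, Trpv2, Pkd2, Piezo1 and Ano1), Pearson's r of log2(CPM + 10) within a pool lay between -0.16 and 0.18, and 0 pairs had an r of 0.1 or more in size with the same sign in both pools. Ano1 was present after thinning in 56.5% and 64.4% of smooth muscle-like cells with Trpv2 and in 52.8% and 51.4% of those without. For Pkd2 and Ano1 the shares of cells with Ano1 were 53.8% and 51.6% with Pkd2 and 53.4% and 57.005% without. After thinning to 20000 counts the median was 1 member per smooth muscle-like cell in both pools, and 17.5% and 15.99% of the cells held none. The medians were 1 and 1 in fibroblast-like and 1.5 and 1 in endothelial-like cells. Without thinning more smooth muscle-like cells held a count, with Ano1 in 80.4% and Pkd2 in 58.8% of them over both pools. Of 8648 genes present in at least 20% of the cells of each pool, the gene most like Piezo1 was Ctu2, with r = 0.67 and 0.55 in pools A and B, and for the other 4 members no gene reached 0.3 in both pools.

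Smooth muscle-like cells split into 5 subclusters, which went with the pools: subcluster 0, led by Ccn5 and Casq1, held 62.3% of the smooth muscle-like cells of pool A and 11.9% of those of pool B, and subcluster 1, led by Tnnt2 and Des, held 9.09% and 67.7%. Each subcluster held cells of both pools, so levels are given by pool, with no test. Ano1 had 133.6 and 75.5 CPM in subcluster 0 and 140.99 and 122.2 CPM in subcluster 1, and Pkd2 had 51.4 and 47.6 CPM in subcluster 0 and 46.96 and 24.96 CPM in subcluster 1. Subcluster 4, with 7 and 14 cells led by Prss12 and Adamtsl1, also had the fibroblast markers Lum and Dcn among its 10 leading genes. It had 2363 and 1525 CPM of Rgs5, the only marker of pericytes examined by subcluster. It had 16.6 CPM of the fibroblast marker Dcn in pool A and 1260 CPM in pool B, with 62.5% of the counts of pool B in 1 cell. It held 53.5 and 156.6 CPM of Piezo1, of which 1 cell held 64.7% and 50.1%, against 5.70 to 44.03 CPM in the other subclusters and pools. With the highest cell left out of each subcluster, it had 20.9 CPM in pool A, where subcluster 3 was higher at 25.6 CPM, and 85.7 CPM in pool B, where it was still the highest. This was noticed after the values were seen and has no test, and Ctu2 counts were not examined by subcluster.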

How the data were processed

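The submitters' processing notes name build GRCm38 (mm10) and, without versions or roles, featureCounts, Subread, Bowtie, Bowtie2 and bcl2fastq; strand setting and versions are not stated. The authors deposited raw counts per gene and cell, 46517 gene identifiers by 675 cells. Symbols, positions and exon lengths came from GENCODE M21. Amplified reads carry no molecular identifiers, so intervals cover counting error only. No doublet caller was run.

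A minimum of 20000 counts and 1000 genes removed 0 cells. Cells were clustered on 23354 genes (2000 variable genes, 20 components, 15 neighbours, Leiden resolutions 0.25, 0.5 and 1.0; scanpy 1.11.5, leidenalg 0.10.2, Python 3.11.15) that exclude the 23126 tested genes and the 37 mitochondrial ones, but the same cells were clustered and tested. A cluster took the type with the highest mean marker level and at least 3 markers at 100 CPM, with no name where 2 or more markers of another type, and more than of its own, were among its 10 leading genes. This rule was the last of 4 tried, and it was chosen after the clusters and the members' levels in them had been seen; the earlier 3 named fewer cells smooth muscle. Under it 3 clusters kept the name smooth muscle with 1 leading marker of pericytes (Cspg4 or Rgs5) and none of their own. A class is the cells named alike at 0.5 and 1.0. The markers had been fixed earlier; the members and lists were chosen with earlier results of these data known.

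Counts summed per pool and class were fitted in edgeR 4.0.16 (R 4.3.3) with filterByExpr, TMM and the quasi-likelihood F test. Pool was a block, p-values were adjusted by Benjamini-Hochberg and the threshold was 0.05. Each fit of 2 classes left 1 residual degree of freedom, and edgeR shares information on the spread across genes. The p-values thus set a class difference against how much it varied between these 2 pools, with a spread partly borrowed from other genes. Fitted values have a standard error derived from the F statistic. The block rests on shared mice and plate: pool differences correlated between classes at r = 0.22, 0.19 and 0.10 over 2915 genes, which are not independent replicates. DESeq2 1.42.0 was an alternative. All 9 members are named, with close relatives (1 of which is not reported here), up to 3 called genes per list and direction (the examples given are from these), and genes with r of at least 0.3 to a member in both pools.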

Additional observations from a re-analysis of the deposited data

Results flagged for a closer look

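Trpc1 differences had opposite signs in the pools in all 3 comparisons, and this was not tested. Its level in smooth muscle-like minus fibroblast-like cells was -15.02 CPM in pool A and 4.22 CPM in pool B, a gap of -19.2 CPM. In smooth muscle-like minus endothelial-like cells it was 12.9 and -7.16 CPM, a gap of 20.04 CPM, and in fibroblast-like minus endothelial-like cells 27.9 and -11.4 CPM, a gap of 39.3 CPM. Single cells held 60.5% of the fibroblast-like counts of pool A and 85.2% of the endothelial-like counts of pool B.

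The 10 cells outside the 3 classes, which no comparison as reported used, held 231.2 ± 35.9 CPM of Ano1 (SD, n = 2 pools), with a count in 9 of the 10. At Leiden resolution 0.5 alone they enter the fibroblast-like class and at 1.0 alone the endothelial-like class, and in the fit at 0.5 Ano1 and Trpv2 were not called. The 6 pericyte markers summed to 6121 and 5096 CPM in the 10 cells, against 1395 and 1042 CPM in the smooth muscle-like class. The 8 smooth muscle markers reached 14617 and 11259 CPM, against 19641 and 18204 CPM. The 7 fibroblast markers reached 6211 and 3372 CPM, against 2748 and 2701 CPM. Among the pericyte markers, Rgs5, Vtn and Higd1b were higher in both pools, and Kcnj8 and Abcc9 in pool B only. Cspg4 was lower in both (7.62 and 135.7 CPM, against 500.1 and 388.6 CPM). The part of these markers in the Ano1 level was not tested.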

How the results depend on the processing

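For smooth muscle-like over fibroblast-like cells 6.64% of the tested genes were called. DESeq2 called 14.1%, the fit of cells thinned to 20000 counts 11.6% (705 of 6102), the fit with no replicate block 3.36%, the classes at Leiden resolution 0.5 alone 2.65% and at 0.25 alone 2.85%, and 1 fit of all 3 classes 1.85%. For smooth muscle-like over endothelial-like cells, with 6.15% called, DESeq2 gave 13.2%, thinning 9.26% (554 of 5984), no replicate block 1.92%, the 3-class fit 4.46%, and leaving out cluster 0 of resolution 0.5, smooth muscle-like cells that have the pericyte marker Cspg4 among their leading genes, 4.31%. For fibroblast-like over endothelial-like cells, with 1.43% called, DESeq2 gave 13.3%, no filter 3.5%, no replicate block 3.33%, resolution 1.0 alone 2.08% and 0.25 alone 2.18%, cells under 100000 counts or 2000 genes left out 2.25%, thinning 5%, the 3-class fit 3.83% and leaving out endothelial-like cells with 100 CPM of Dcn 8.02%.

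In smooth muscle-like over fibroblast-like cells Pkd2 was called lower under each of the 12 alternatives with a test, and Ano1 and Trpv2 were called without cluster 0 too, Trpv2 with an edgeR adjusted p of 0.04998. The alternatives without cluster 0, without the Dcn cells, without subcluster 4 and without the highest cell of each subcluster were chosen after seeing the data. Direction turned for log2 fold changes that were not called. Trpc1 in smooth muscle-like over fibroblast-like cells was 0.08 as reported, and -0.028 with DESeq2 size factors, -0.039 in DESeq2, -0.68 with no replicate block, -1.08 at resolution 0.25, -0.015 without shallow cells, -0.62 in the 3-class fit, -0.020 without subcluster 4 and -0.0035 without cluster 0. In fibroblast-like over endothelial-like cells Trpv4 was 2.84 at resolution 0.25, and Ano1 0.80 at 0.5. The cause was not tested. DESeq2 size factors moved the median of all genes by -0.11, -0.17 and -0.098 in the 3 comparisons. With at least 3 counts after thinning, 1 member in place of 3 was present in 20% of smooth muscle-like cells of both pools. Trpm4 (subcluster 3) and Piezo1 (subcluster 4) were the 2 members with the same highest subcluster in both pools. With the highest cell left out neither was, and 1 other member, Pkd2 (subcluster 0), was. Pool A alone gave 6 members at 10 CPM and pool B alone 5, against 5 in both. With 2 pools, 26 endothelial-like cells and single cells holding most counts of several members, small differences were not detectable.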
